A study of Homo sapiens with 44 samples.

Results

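A set of 10 keratin genes was followed through every RNA sequencing group of the series: KRT8, KRT18, KRT7 and KRT19, the keratins of luminal and other simple epithelial cells, KRT5, KRT6A, KRT14 and KRT17, the keratins of basal and stressed stratified epithelium, and KRT80 and KRT81. They were taken by symbol, and all 10 were found both in the count table of 58735 genes and in the variance-stabilised table of 27315 gene symbols. The RNA came from the human triple-negative breast cancer lines MDA-MB-231 and SUM149, in 7 groups of 2 biological replicates, all transfected with siRNA at 20 nM by Dharmafect I and, per the labels, harvested after 48 h. In the first experiment MDA-MB-231 cells received control siRNA, siRelA or siRelB, which target the NF-kB subunits RELA and RELB. In the second experiment MDA-MB-231 and SUM149 cells received control siRNA or siEZH2, against the histone H3 lysine methyltransferase EZH2. No group was left without siRNA, and each line stands for a single tumour.

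Keratins are the intermediate filament proteins of epithelial cells. A filament is built from pairs of a type I and a type II chain, so that KRT18 and KRT19 (type I) assemble with KRT8 and KRT7 (type II), and KRT14 and KRT17 (type I) with KRT5 and KRT6A (type II). In the mammary gland the luminal layer is known for KRT8, KRT18, KRT7 and KRT19 and the basal layer for KRT5, KRT14 and KRT17, and pathologists use these pairs to class breast tumours. KRT80 is a type II chain found near cell contacts, and KRT81 is a type II hair keratin.

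On GRCh38, 7 of the genes lie in the chromosome 12 keratin cluster between 52168996 and 52952906. They are KRT80 (chr12:52168996-52192014, minus strand), KRT7 (chr12:52232520-52252186, plus), KRT81 (chr12:52285913-52291534, minus), KRT6A (chr12:52487176-52493257, minus), KRT5 (chr12:52514575-52520530, minus), KRT8 (chr12:52897187-52949954, minus) and KRT18 (chr12:52948871-52952906, plus). The other 3, KRT19 (chr17:41523617-41528308), KRT14 (chr17:41582279-41586895) and KRT17 (chr17:41619442-41624842), lie on the minus strand of chromosome 17. KRT18 is thus the only type I gene of the 10 that sits among type II genes. Its gene model overlaps that of KRT8 on the opposite strand by 1084 bases. The model of the hair keratin KRT86 overlaps that of KRT81 by 5622 bases, the whole KRT81 model, and that of KRT7 by 2887 bases. It is not stated whether reads were counted by strand. Reads in these overlaps, for KRT81 all of its reads, therefore cannot be assigned with certainty.

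The RefSeq promoter table used here held 2 of the 10 genes, KRT5 and KRT8. The KRT5 window, 250 bases before to 50 after the start (GRCh38.p14 chr12:52520345-52520644, minus strand), is shown because KRT5 is a basal keratin that separated the lines, and because the E-box in it, in capitals, is the site type read by ZEB and SNAI repressors, whose transcripts are given further on.

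KRT5 promoter: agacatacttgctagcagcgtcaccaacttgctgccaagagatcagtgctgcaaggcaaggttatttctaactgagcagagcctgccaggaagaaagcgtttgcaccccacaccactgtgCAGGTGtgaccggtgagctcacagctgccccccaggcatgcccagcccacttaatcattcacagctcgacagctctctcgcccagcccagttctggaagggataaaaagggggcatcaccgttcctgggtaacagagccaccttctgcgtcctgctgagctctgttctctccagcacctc

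The E-box letters CAGGTG, searched on both strands, stand at positions -130 to -125 from the start, and 20.59% of 35116 RefSeq promoters of this length hold them. Matches to the kappa B motif (in 11.27% of promoters), the AP-1 motif TGANTCA (7.709%), the GC box GGGCGG (44.95%), the TATA box TATAAA (11.53%) and the AP-2 motif GCCNNNGGC (23.2%) were not present in the KRT5 window. With a single match, no matches overlapped. The KRT8 window lies around a RefSeq start site 21393 bases upstream of the start of the main KRT8 transcript and held none of the 6 motifs, so it is not printed.

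The deposited counts of the first experiment summed to 18.6 to 24.4 M per library, and the values of the second correspond to an estimated 17.5 to 38.2 M reads. The siRNA targets fell as labelled. The log2 change was -3.71 ± 0.11 (SE) for RELA under siRelA and -2.98 ± 0.16 for RELB under siRelB, and RELB also fell under siRelA (-1.48 ± 0.14). Under siEZH2 the recovered normalised counts of EZH2 were 9.08-fold lower in MDA-MB-231 and 5.54-fold lower in SUM149, and those of RELB 3.13-fold and 1.73-fold lower. On the variance-stabilised scale of that table, which compresses such changes, these falls were -2.52 ± 0.07 and -2.00 ± 0.07 for EZH2 and -1.02 ± 0.08 and -0.50 ± 0.08 for RELB. Of the haematopoietic markers, PTPRC had no more than 4 counts in the first experiment and HBB no more than 0.707 normalised counts in the second, while CSF1R had 110 to 395 counts in the first.

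The label SUM149 was checked against markers before it was used. SUM149 is usually described as a basal-like line that keeps E-cadherin and basal keratins, but the libraries labelled SUM149 held KRT14 at 1.64 and 0 normalised counts in the controls, and TP63, the basal cell transcription factor, at 0 in both. ITGB4, the hemidesmosome integrin of basal cells, stood at 18.02 and 16.8, against 3525 and 3704 in MDA-MB-231 controls. CDH1, which encodes E-cadherin, stood at 116 and 102, while VIM, the mesenchymal filament vimentin, stood at 62193 and 64843. The basal metalloprotease gene MME, at 1708 and 1891, and the proteoglycan gene DCN, usual in fibroblasts, at 2024 and 2201, were high. Several defining basal markers were therefore absent or low in these libraries. The name SUM149 is used below as the label only.

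In MDA-MB-231 the expressed keratins were the luminal ones with KRT80 and KRT81, and the basal set was absent or at trace level. Levels of different genes are compared as CPM per kb, counts scaled to the library's total (CPM) and to the length of the main transcript in kilobases. In the first experiment's controls KRT8 was highest, at 471 ± 21.8 (SD, n = 2), followed by KRT18 at 286 ± 12.4 and KRT7 at 280.3 ± 16.9, which did not differ beyond their spread. KRT19 came next at 195 ± 20.7, then KRT80 at 104 ± 2.73 and KRT81 at 51.8 ± 3.35. KRT5, KRT6A and KRT14 had 0 counts in all 6 libraries, which allows at most 3 counts, or 0.123 to 0.161 CPM depending on the library, by counting error alone. KRT17 gathered 5 and 15 counts with control siRNA, 3 and 12 with siRelA and 15 and 2 with siRelB. Its 8 annotated pseudogenes held 1 and 0, 4 and 6, and 0 and 4 counts in the same order, more than KRT17 itself in siRelA replicate 1 and siRelB replicate 2. Together the 10 keratins took 0.238% to 0.291% of all counts.

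**Figure D1:**
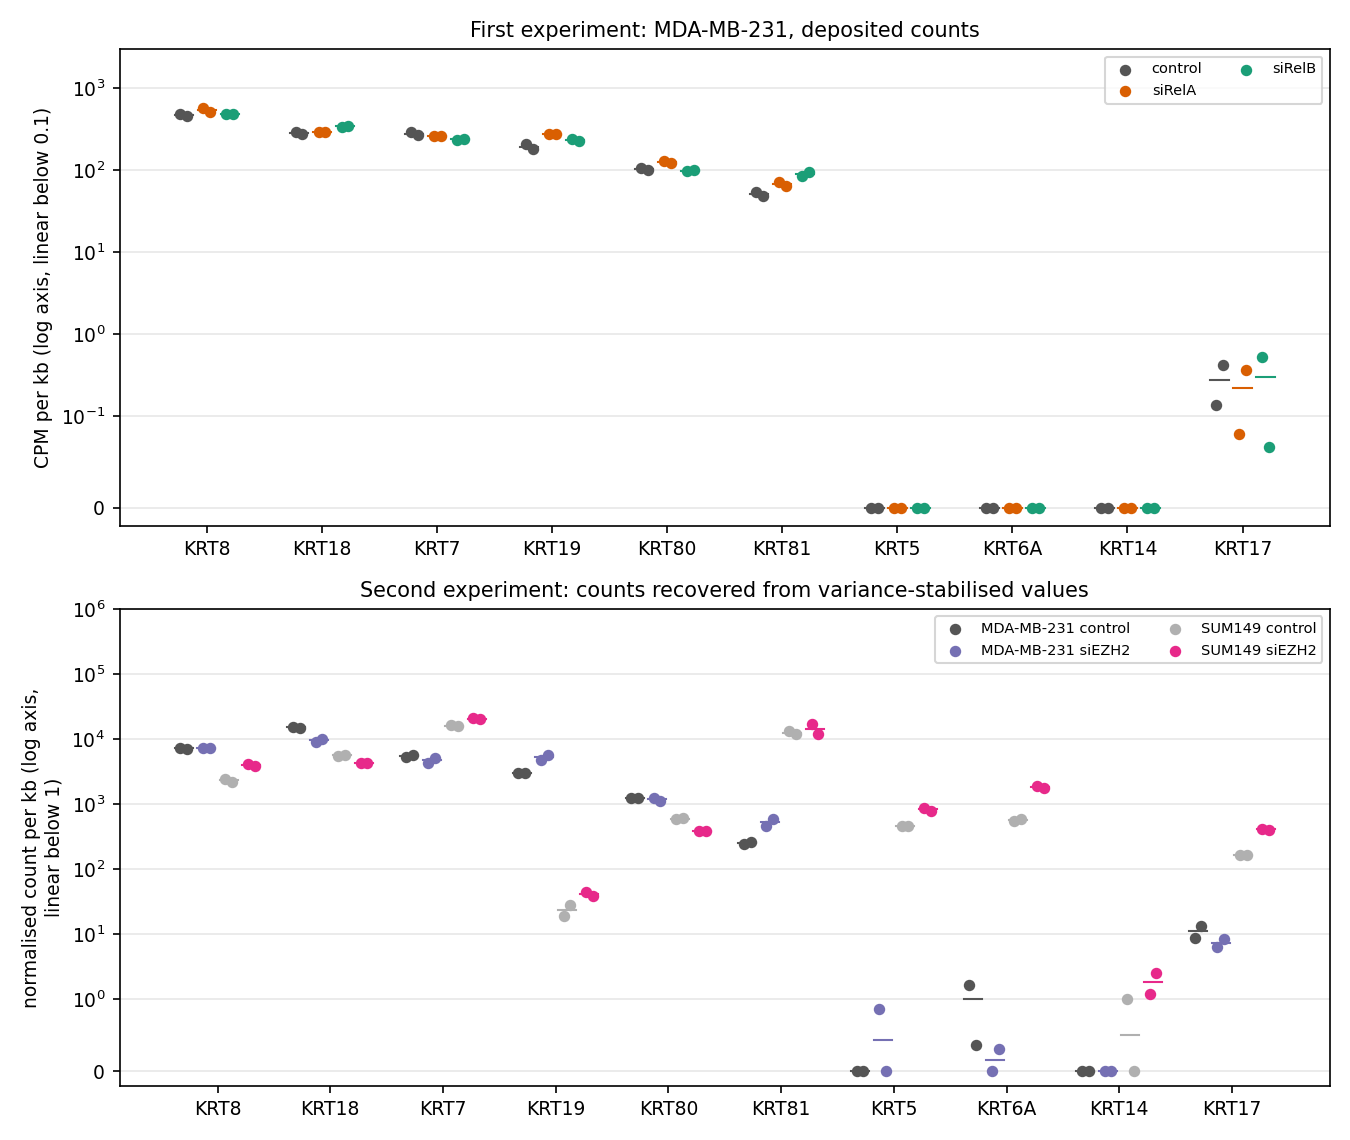
Level of each keratin per kilobase of transcript in every library (points) with the group mean (line), as CPM per kb in the first experiment and as recovered normalised counts per kb in the second, both on log axes that turn linear near 0. KRT5, KRT6A and KRT14 sit at 0 in all 6 libraries of the first experiment, and KRT19 and KRT81 change places between the lines in the second.

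Knockdown of RELA was followed by more KRT19 and KRT81. KRT19, the smallest keratin and a luminal marker, stood at 291 and 250.3 CPM in the controls against 389.7 and 384 CPM under siRelA. Both siRelA libraries lay above both controls, and the log2 change was 0.45 ± 0.09 (SE, n = 2 per group, edgeR quasi-likelihood test, Benjamini-Hochberg adjusted p = 0.00144). KRT81 stood at 104 and 95.3 CPM in the controls against 139 and 125 CPM under siRelA, again without overlap, a log2 change of 0.34 ± 0.10 (edgeR adjusted p = 0.0236). That KRT81 call was lost without control replicate 1 (0.40 ± 0.13, edgeR adjusted p = 0.0536), without control replicate 2 (0.26 ± 0.12, 0.230) and without siRelA replicate 1 (0.23 ± 0.11, 0.221).

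The remaining keratins did not pass the test under siRelA. KRT80 had 409.9 and 395 CPM in the controls and 501 and 482 CPM under siRelA, a log2 difference of 0.22 ± 0.08 that missed the threshold in edgeR (adjusted p = 0.0522) and passed it in DESeq2 (0.0406). KRT8, at 867 and 812 CPM in the controls and 1026 and 919 CPM under siRelA, had a log2 difference of 0.14 ± 0.08 (edgeR adjusted p = 0.236). Its partner KRT18 was at 417 and 392 against 420.3 and 416 CPM (-0.02 ± 0.08, edgeR adjusted p = 0.906). KRT7 differed by -0.16 ± 0.08 (edgeR adjusted p = 0.172), and the difference of KRT17, -0.41 ± 1.06, has an error wider than itself. In all, 2 of the 7 keratins with enough counts to be tested were called, both higher, beside 19% of the 15930 genes tested (8.82% higher and 10.2% lower). The median log2 difference of the 7 was 0.14, beside 0.02 over all genes tested. In the same libraries the summed level of the 6 fibroblast markers was 30.9 and 29.8 CPM in the controls and 57.6 and 48.9 CPM under siRelA, carried by COL1A1, with DCN at 0 counts throughout; its part in the keratin results was not tested.

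Knockdown of RELB was followed by a larger rise of KRT81 and by a fall of KRT7. KRT81 reached 164 and 187 CPM under siRelB against 104 and 95.3 CPM in the same controls, a log2 change of 0.76 ± 0.10 (edgeR adjusted p = 4.88e-05). Both siRelB libraries lay above both controls. KRT7, a type II keratin of glandular ducts, stood at 475 and 436 CPM in the controls against 386 and 392 CPM under siRelB, so that the groups did not overlap. Its log2 change was -0.28 ± 0.08 (edgeR adjusted p = 0.0184). The call was lost without control replicate 1 (-0.22 ± 0.10, edgeR adjusted p = 0.199), siRelB replicate 1 (-0.27 ± 0.11, 0.123) or siRelB replicate 2 (-0.31 ± 0.11, 0.0621).

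KRT18 stood at 484 and 488 CPM under siRelB, above both controls, with a log2 difference of 0.21 ± 0.08 that missed the threshold in edgeR (adjusted p = 0.0639) and passed it in DESeq2 (0.0419). KRT19, at 333 and 319 CPM, differed by 0.21 ± 0.09 (edgeR adjusted p = 0.0961), and KRT80, at 379 and 386 CPM, by -0.13 ± 0.08 (0.273). KRT8 was at 874 and 870.0 CPM (0.00 ± 0.08, edgeR adjusted p = 0.995), and KRT17 differed by 0.02 ± 1.06. The calls thus numbered 2 of 7, 1 in each direction, beside 18.3% of all genes tested (7.45% higher and 10.8% lower), and the median of the 7 was 0.02 beside 0.01 over all genes. In the siRelB libraries the fibroblast markers summed to 42.5 and 36.9 CPM, above both controls, with DCN at 0, and the 7 haematopoietic markers to 8.49 and 9.73 CPM against 12.4 and 11.5 CPM in the controls, with CSF1R lower (-0.67 ± 0.19, edgeR adjusted p = 0.0234). Their part in the keratin results was not tested.

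Both knockdowns share their controls, so they were also set directly against each other. KRT80 was higher under siRelA than under siRelB by 0.35 ± 0.08 on the log2 scale (edgeR adjusted p = 0.00235). KRT81 was lower under siRelA than under siRelB by the same comparison (-0.42 ± 0.10, edgeR adjusted p = 0.00371), and so was KRT18 (-0.23 ± 0.08, 0.0302). KRT19 differed by 0.23 ± 0.09 and missed the threshold (edgeR adjusted p = 0.0507). These 3 calls of 7 stand beside 29.9% of all genes tested (16% higher under siRelA and 14% lower). Leaving out siRelB replicate 2 removed the KRT18 call (-0.21 ± 0.11, 0.159) and the KRT81 call (-0.31 ± 0.12, 0.0693). KRT18 also lost its call without siRelB replicate 1 (-0.25 ± 0.11, 0.102) and without siRelA replicate 2 (-0.21 ± 0.09, 0.0942).

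**Figure D2:**
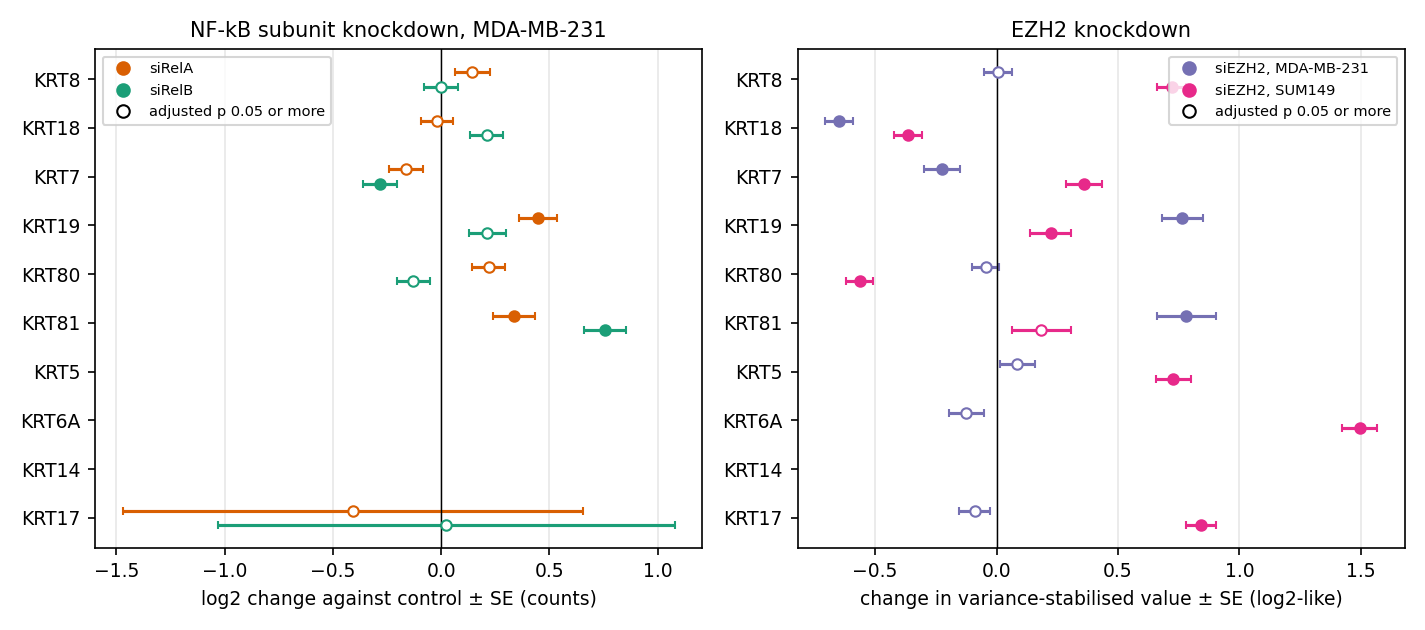
Log2 difference from control, with its standard error, for each tested keratin under siRelA and siRelB (left, edgeR on counts) and under siEZH2 in both lines (right, limma on variance-stabilised values); filled points passed the test. KRT81 lies above 0 in all 4 comparisons and passed in 3, and KRT18 lies furthest below 0 in MDA-MB-231 under siEZH2.

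For the second experiment the deposited table holds variance-stabilised values. Their scale is close to log2 for abundant genes but compresses differences among genes with few reads. Tests are on that scale. Levels per library are given as normalised counts recovered from it, under the assumption that the usual closed form of the DESeq2 transformation had been used. Fold values come from the recovered counts. Because MDA-MB-231 has almost no KRT5, KRT6A or KRT17 and SUM149 almost no KRT19, these 4 genes passed the filter on low values only through the line in which they are high, and KRT14 did not pass it in any line.

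The 2 lines were set apart by which keratins they expressed. In control SUM149 libraries KRT81 stood at 25946 and 22738 normalised counts against 465 and 508 in MDA-MB-231, a 50.0-fold higher mean (difference 5.06 ± 0.12 on the variance-stabilised scale, limma adjusted p = 1.31e-13). KRT19 went the other way, at 26.1 and 39.4 in SUM149 against 4147 and 4155, a 127-fold lower mean. For KRT19, KRT5, KRT6A and KRT17 no test between the lines is given, because the filter let them in through 1 line. KRT5 was at 1015 and 1027 against 0 and 0, at least 680-fold higher when 3 reads over the MDA-MB-231 group are taken as the floor. The basal set therefore differed within itself, because KRT14, the usual partner of KRT5, was nearly absent from the same SUM149 libraries.

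KRT6A, a basal and wound-induced keratin, was at 1273 and 1375 in SUM149 and at 3.79 and 0.848 in MDA-MB-231, and KRT17, its type I companion, at 248 and 249.8 against 13.3 and 20.4. Of the luminal keratins, KRT7 was 2.91-fold higher in SUM149, at 26892 and 25485 against 8727 and 9258. KRT8 was 3.09-fold lower (4379.6 and 3956 against 13028 and 12749) and KRT18 2.69-fold lower (7851 and 8010.05 against 21779 and 20965). KRT80 was 2.05-fold lower, at 2253 and 2357 against 4737 and 4723. KRT7, KRT8, KRT18, KRT80 and KRT81 were called in limma, 2 higher and 3 lower in SUM149, beside 82.8% of the 12356 genes tested (41.3% higher and 41.5% lower), so most genes were called as well.

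Per kilobase, KRT7 made up 41.9% ± 0.385 (SD, n = 2) and KRT81 32.7% ± 1.51 of the summed keratin level in SUM149 controls, where the 4 basal keratins made up 3.11% ± 0.238. In MDA-MB-231 controls of the same experiment KRT8, KRT18, KRT7 and KRT19 made up 95.4% ± 0.0865 and the basal set 0.0374% ± 0.0077. In MDA-MB-231 the order per kilobase was KRT18, KRT8, KRT7, KRT19, KRT80 and KRT81. In SUM149 it was KRT7, KRT81, KRT18, KRT8, KRT80, KRT6A, KRT5, KRT17 and KRT19, and of these neighbours KRT80, at 582 and 609, and KRT6A, at 551 and 596, overlapped.

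Knockdown of EZH2 in MDA-MB-231 was followed by less KRT18 and more KRT19 and KRT81. KRT18, the type I partner of KRT8, stood at 21779 and 20965 normalised counts in the controls against 12941 and 14149.5 under siEZH2, 1.58-fold lower (-0.65 ± 0.06, limma adjusted p = 6.58e-07). KRT19 rose from 4147 and 4155 to 6533 and 8021, 1.75-fold (0.76 ± 0.08, limma adjusted p = 5.26e-06). KRT81 rose from 465 and 508 to 896 and 1126, 2.08-fold (0.78 ± 0.12, limma adjusted p = 1.16e-04). For all 3 genes the groups of 2 did not overlap, which groups this small can do without any effect. KRT7 stood at 7046 and 8331 under siEZH2, below both controls, and passed with a smaller difference (-0.22 ± 0.07, limma adjusted p = 0.0204). The KRT7 call was lost without control replicate 1 (-0.26 ± 0.10, 0.0507), control replicate 2 (-0.18 ± 0.10, 0.156) or siEZH2 replicate 1 (-0.11 ± 0.07, 0.227).

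KRT8 did not pass the test where its partner KRT18 fell, at 13028 and 12749 in the controls against 12796 and 13097 under siEZH2 (0.01 ± 0.06, limma adjusted p = 0.945). KRT80 was at 4737 and 4723 against 4803 and 4364 (-0.04 ± 0.06, 0.523). The basal keratins stayed at trace level. KRT5 was listed at 0 except for 1.93 normalised counts in 1 siEZH2 library, KRT6A was at 3.79 and 0.848 against 0 and 0.707, KRT17 was at 13.3 and 20.4 against 9.65 and 12.7, and KRT14 was at 0 in all 4 libraries. Calls numbered 4 of 9, 2 in each direction, beside 56.6% of all genes tested (29.4% higher and 27.1% lower), with a median of -0.04 beside 0.00. The 9 include KRT5, KRT6A and KRT17, which passed the filter only through SUM149 and can hardly move in this line. The share and median of the 9 are therefore not read against those of all genes. The 7 haematopoietic markers summed to 76.1 and 81.4 normalised counts in the controls against 210.0 and 244 under siEZH2, with PTPRC at 0 to 2.48. The 6 fibroblast markers summed to 293 and 300.1 against 396 and 442, carried by PDGFRB, at 35.03 and 40.7 against 172 and 215. The part of either list in these results was not tested.

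Knockdown of EZH2 in SUM149 was followed by more of the basal keratins that these cells express and by more KRT8. KRT6A rose most, from 1273 and 1375 to 4356 and 4058 normalised counts, 3.18-fold (1.49 ± 0.07, limma adjusted p = 3.51e-09). KRT17 rose from 248 and 249.8 to 637 and 599.7, 2.48-fold (0.84 ± 0.06, limma adjusted p = 1.60e-07), and KRT5 from 1015 and 1027 to 1949 and 1766, 1.82-fold (0.73 ± 0.07, limma adjusted p = 2.10e-06). In each of these genes both siEZH2 libraries lay above both controls, which groups of 2 can do without any effect. The share of all genes that do so was not counted. KRT14 had 1.64 and 0 in the controls against 1.96 and 4.06 under siEZH2, too little to test. The KRT5 call was lost in limma on log2 recovered counts plus 1 (0.86 ± 0.40, adjusted p = 0.0934) and held in edgeR on recovered counts (0.88 ± 0.09, adjusted p = 4.01e-07).

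Among the luminal keratins the members of a filament pair moved apart. KRT8 rose from 4379.6 and 3956 to 7267 and 6809.6, 1.69-fold (0.72 ± 0.06, limma adjusted p = 3.46e-07), while KRT18 fell from 7851 and 8010.05 to 6118 and 6069, 1.30-fold (-0.37 ± 0.06, limma adjusted p = 1.09e-04). KRT7 rose 1.29-fold, from 26892 and 25485 to 34542 and 32826 (0.36 ± 0.07, limma adjusted p = 0.001). KRT80 fell 1.56-fold, from 2253 and 2357 to 1481 and 1472 (-0.56 ± 0.06, limma adjusted p = 1.94e-06).

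KRT19 remained scarce, at 26.1 and 39.4 in the controls against 62.6 and 52.7 under siEZH2 (0.22 ± 0.08, limma adjusted p = 0.0365). This call was lost with no filter on low values (0.0725), after quantile normalisation (0.17 ± 0.09, 0.108), and without MDA-MB-231 control replicate 1 (0.0700) or 2 (0.0699), SUM149 control replicate 1 (0.204), or SUM149 siEZH2 replicate 1 (0.175) or 2 (0.0660). KRT81 had 25946 and 22738 in the controls against 32592 and 23452 under siEZH2, so the groups overlapped, and it was not called (0.18 ± 0.12, limma adjusted p = 0.213). A fit with the replicate number as a block called it (0.0399), and without SUM149 siEZH2 replicate 2 it was called at 0.42 ± 0.11 (0.00793), whereas without siEZH2 replicate 1 it was -0.05 ± 0.11.

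In all 8 of 9 tested keratins were called in SUM149, 6 higher and 2 lower, beside 58% of all genes tested (29.4% higher and 28.6% lower). The 9 include KRT19, which passed the filter only through MDA-MB-231, so its call is no support. The median of the 9 was 0.36 beside -0.00 over all genes, and their median absolute difference 0.56 beside 0.20. The basal set rose from 3.11% ± 0.238 to 6.53% ± 0.269 of the summed keratin level per kilobase. Other cell types' markers moved in the same libraries. The summed level of the 6 fibroblast markers was 2858 and 2995 normalised counts in SUM149 controls against 6408 and 6259 under siEZH2, carried by DCN and FAP, with PDGFRA at 0 to 6.17 and LUM at 0 to 0.978. The 7 haematopoietic markers summed to 78.5 and 53.0 in the controls against 229 and 225 under siEZH2, with PTPRC at 0 to 1.17 and HBB at 0. The part of such cells in the keratin results was not tested, and in bulk RNA a change in the number of cells of a type and a change in RNA per cell cannot be told apart.

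**Figure D3:**
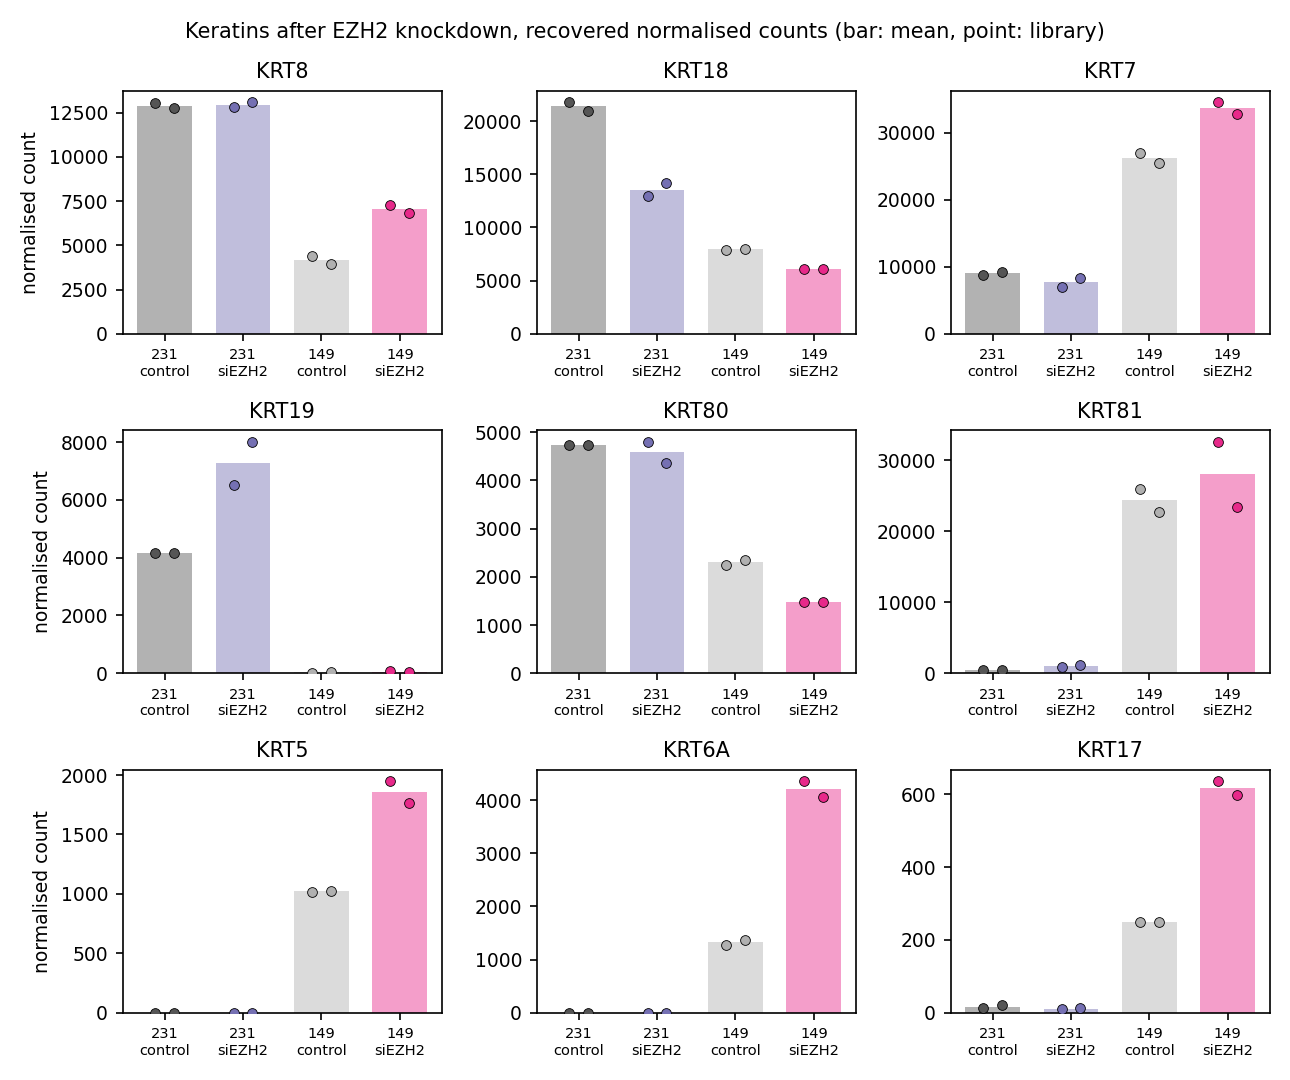
Recovered normalised counts of 9 keratins in each library of the second experiment (points) with group means (bars), for MDA-MB-231 and SUM149 with control siRNA or siEZH2, each panel on its own linear axis from 0. KRT18 is lower under siEZH2 in both lines, and KRT5, KRT6A, KRT17 and KRT8 are higher under siEZH2 in SUM149.

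The siEZH2 effect was compared between the lines by the interaction term, given as the SUM149 effect minus the MDA-MB-231 effect. It is read for the 5 keratins that are expressed in both lines. KRT8 (0.71 ± 0.08, limma adjusted p = 6.40e-05) and KRT7 (0.58 ± 0.10, 0.00159) had the higher effect in SUM149, and for KRT7 the effects had opposite signs. KRT80 fell in SUM149 and not detectably in MDA-MB-231 (-0.52 ± 0.08, limma adjusted p = 4.57e-04). KRT18 fell in both lines, by less in SUM149 (0.28 ± 0.08, limma adjusted p = 0.0239).

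Not all of these calls held. KRT5, KRT6A, KRT17 and KRT19 can hardly move on this scale in the line where they are near 0, so their interaction terms are not read as differences between the lines. The recovered counts of KRT19 rose 1.75-fold in MDA-MB-231 and 1.76-fold in SUM149, and edgeR on those counts gave an interaction of -0.01 ± 0.38 (adjusted p = 1). The KRT81 interaction (-0.60 ± 0.17, limma adjusted p = 0.0261) was lost with no filter (0.0812), with robust variance estimation (0.181) and in 5 of the 8 fits that left out 1 library. The KRT18 interaction was lost in 6 of those 8 fits, with adjusted p from 0.0509 to 0.0991. The calls of KRT7, KRT8, KRT18, KRT80 and KRT81, 3 higher and 2 lower in SUM149, stand beside 21.5% of all genes tested (11.2% higher and 10.4% lower).

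The balance of KRT8 over KRT18, which form a filament pair, was computed per kilobase in each library. In the first experiment it was 1.65 and 1.64 with control siRNA, 1.93 and 1.75 with siRelA and 1.43 and 1.41 with siRelB, so the 3 groups did not overlap. In the second experiment it was 0.474 and 0.482 in MDA-MB-231 controls against 0.783 and 0.733 under siEZH2. In SUM149 it was 0.442 and 0.391 in the controls against 0.941 and 0.889 under siEZH2. The ratio was thus higher under siEZH2 in every library of both lines, by a fall of KRT18 alone in MDA-MB-231 and by a rise of KRT8 with a fall of KRT18 in SUM149. No test was made of the ratio itself. The MDA-MB-231 controls of the 2 experiments differ in this ratio by more than any knockdown does. The tables were made by different pipelines and normalised separately, and the part of the pipeline in this gap was not tested. Type II chains over type I chains, summed over the 10 genes per kilobase, stood at 0.786 ± 0.0247 in MDA-MB-231 controls and 0.925 ± 0.0391 under siEZH2, and at 5.64 ± 0.412 in SUM149 controls and 8.86 ± 0.844 under siEZH2 (SD, n = 2).

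**Figure D4:**
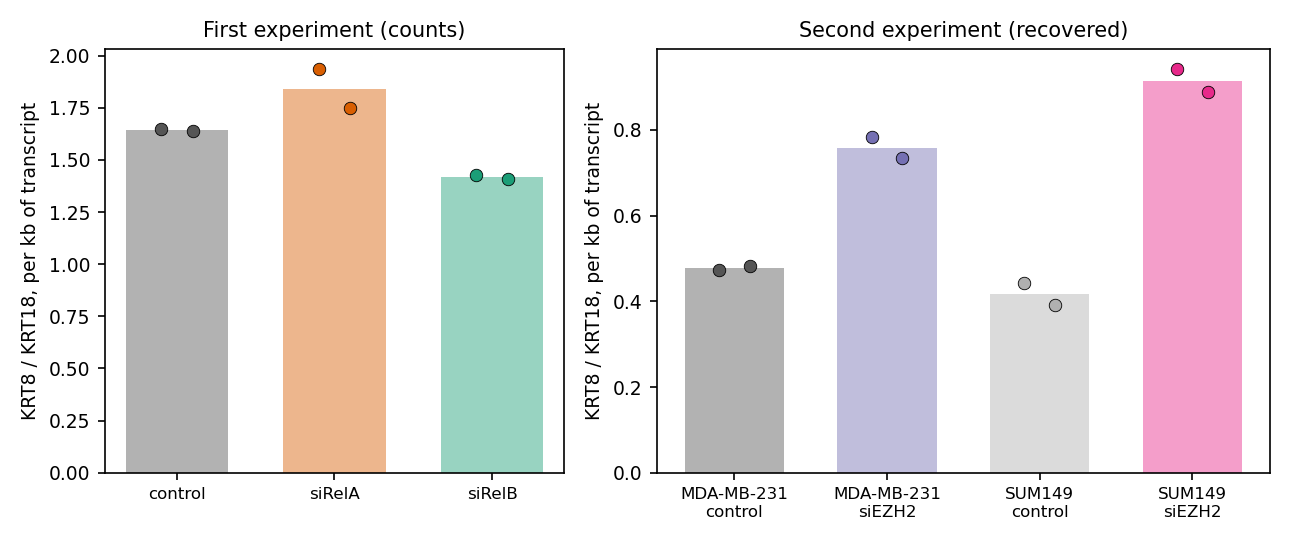
Ratio of KRT8 to KRT18 per kilobase of transcript in each library (points) with group means (bars); the 2 experiments have separate vertical axes from 0. The ratio is 1.41 to 1.93 in the first experiment and 0.391 to 0.941 in the second, where siEZH2 libraries lie above their controls in both lines.

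Near copies of the keratins bear on these counts. In the first experiment 51 KRT8 pseudogenes held 0.583% to 0.993% as many counts as KRT8, and 67 KRT18 pseudogenes 0.112% to 0.289% as many as KRT18. KRT86, whose model overlaps KRT81, numbered 206 and 228 counts under siRelB against 155 and 118 in its controls, and rose with KRT81 there (0.92 ± 0.21, edgeR adjusted p = 0.00476). Under siEZH2 KRT86 was not called in either line. In MDA-MB-231 it passed the filter only through SUM149, and its recovered counts were 36.0 and 36.5 in the controls against 46.3 and 59.4 under siEZH2. At so few reads the variance-stabilised scale compresses differences. KRT6B, a close relative of KRT6A, was at 124 and 163 normalised counts in SUM149 controls against 112 and 123 under siEZH2 (-0.13 ± 0.06, limma adjusted p = 0.111), so it did not share the rise of KRT6A. KRT16, the usual partner of KRT6 chains, had 19.6 and 9.003 in the controls against 66.5 and 49.6 under siEZH2, below the filter for testing. The sources used here do not say how reads were shared among these copies.

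The other 39 keratins were mostly silent. Only 4 of them could be tested in the first experiment and 5 in the second. Under siRelA 0 rose and 1 was called lower, KRT34, beside 19% of all genes called. KRT34, a hair keratin, had 0 and 2 counts against 14 and 15 in its controls, and 17 and 16 under siRelB. It passed the filter only through the control and siRelB libraries, so its call is no support. Under siRelB 1 rose, KRT86, and 0 fell, beside 18.3% of all genes called. KRT15, a keratin of basal progenitor cells, was at 67.4 and 72.9 normalised counts in MDA-MB-231 controls against 201 and 221 under siEZH2. In SUM149 it was at 24.5 and 20.3 against 36.2 and 37.5. No test of KRT15 is given, because it passed the filter mainly through the MDA-MB-231 siEZH2 libraries, where it is high. In SUM149 KRT10, known from suprabasal skin, fell under siEZH2 (-0.26 ± 0.07, limma adjusted p = 0.00408). KRT34 was at 76.8 and 69.8 normalised counts in SUM149 controls against 39.1 and 38.5 under siEZH2. In MDA-MB-231 it was at 19.9 and 19.5 against 7.72 and 9.19. No test of KRT34 under siEZH2 is given, because it passed the filter only through the SUM149 controls.

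Proteins that anchor or organise keratin filaments formed a list of 25, among them plakins, desmosomal plaque proteins and hemidesmosome subunits. Under siRelA 6 of 21 tested rose and 1 fell, where 8.82% of all genes were called higher and 10.2% lower, and under siRelB 2 rose and 9 fell, where 7.45% were called higher and 10.8% lower. The called members under siRelB included PPL, the linker periplakin (-1.12 ± 0.15), FAM83H, an organiser of keratin filaments (-1.07 ± 0.19), and ITGA6, a hemidesmosome integrin (-0.83 ± 0.08). Under siEZH2 10 of 22 rose and 5 fell in MDA-MB-231, beside 56.6% of all genes called, and 9 rose and 6 fell in SUM149, beside 58%. PKP2, a desmosomal plaque protein, fell in both lines (-0.89 ± 0.07 and -1.37 ± 0.07), and ITGA6 rose in both (0.87 ± 0.06 and 1.13 ± 0.06). The median of this list was 0.15 in MDA-MB-231 and 0.10 in SUM149, beside 0.00 and -0.00 over all genes.

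Of the other intermediate filament genes 8 were tested under siEZH2, and in each line 3 rose and 2 fell, a share near the 56.6% and 58% of all genes called. VIM rose in both lines (0.57 ± 0.07 with limma adjusted p = 1.50e-05 in MDA-MB-231, 0.41 ± 0.07 with 2.65e-04 in SUM149), and so did LMNA, the nuclear lamin A/C gene (1.13 ± 0.10 and 0.90 ± 0.10), while LMNB2, a B-type lamin gene, fell (-0.55 ± 0.08 and -0.73 ± 0.08). Under siRelA 3 of 7 rose and 1 fell, and under siRelB 0 rose and 2 fell, beside 19% and 18.3% of all genes called. VIM was not called in either of those (0.07 ± 0.08 and -0.14 ± 0.08).

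Transcription factors known for control of keratin or epithelial genes were followed as a list of 23, of which 18 were tested in each experiment. Under siEZH2 7 rose and 5 fell in MDA-MB-231 and 8 rose and 5 fell in SUM149, where 56.6% and 58% of all genes were called. ZEB1, a repressor of epithelial genes that binds E-boxes, rose in both lines (1.24 ± 0.05 and 0.80 ± 0.05), and SNAI2, which binds the same site type, rose in SUM149 (1.06 ± 0.05). Any link of these factors to KRT5, which was 1.82-fold higher in SUM149 under siEZH2, was not tested. In MDA-MB-231 EHF rose under siEZH2 (0.93 ± 0.06). KLF4, an epithelial differentiation factor, fell in SUM149 (-0.74 ± 0.06). Under siRelA 0 rose and 3 fell, EHF (-0.58 ± 0.15), ZEB1 (-0.54 ± 0.10) and FOSL1 (-0.31 ± 0.08). Under siRelB 0 rose and 5 fell, with TFAP2A (-0.80 ± 0.19), EHF (-0.63 ± 0.15) and SNAI2 (-0.63 ± 0.11) changing most. Of all genes, 10.2% were called lower under siRelA and 10.8% under siRelB. EHF is an ETS factor of epithelia, FOSL1 an AP-1 subunit and TFAP2A the AP-2 alpha factor.

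Markers of the mammary layers other than keratins were counted in the same way. Of 15 basal markers 11 were tested, and under siEZH2 10 rose and 0 fell in SUM149, among them MME (1.47 ± 0.07) and ITGA6, and 7 rose and 2 fell in MDA-MB-231. In both lines 29.4% of all genes were called higher, and 28.6% (SUM149) and 27.1% (MDA-MB-231) lower. Of 15 luminal markers 7 were tested, and 5 rose and 0 fell in MDA-MB-231, led by the prolactin receptor gene PRLR (1.24 ± 0.08) and SPDEF (0.69 ± 0.06), whereas in SUM149 1 rose, CD24 (0.55 ± 0.07), and 3 were called lower. These include FOXA1, at 111 and 83.3 normalised counts in the controls against 34.3 and 21.2, which passed the filter only through those controls, so that its call is no support. Under siRelA 3 of 9 luminal markers rose, PRLR (2.78 ± 0.20), AGR2 (2.10 ± 0.20) and SPDEF (1.04 ± 0.17), and 0 fell, beside 8.82% of all genes called higher. Under siRelB 4 of 11 basal markers fell and 0 rose, with ITGA6 and EGFR (-0.82 ± 0.08) changing most, beside 10.8% of all genes called lower. Of 6 epithelial markers 4 were tested in each experiment. Under siEZH2 1 rose and 2 fell in MDA-MB-231, and 2 rose and 1 fell in SUM149. EPCAM, a general epithelial surface protein, fell in both lines (-1.03 ± 0.07 in MDA-MB-231, -2.16 ± 0.07 in SUM149). CLDN7 rose in both (0.56 ± 0.06 and 0.31 ± 0.06). CDH1 rose in SUM149 (0.21 ± 0.06) and was called lower in MDA-MB-231, where it was near the lowest value. Under siRelB 0 epithelial markers rose and 2 fell, EPCAM (-0.66 ± 0.15) and CLDN4 (-0.55 ± 0.09).

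Genes whose pattern was most like a keratin were ranked by Euclidean distance over the 4 knockdown differences, on the log2 scale for siRelA and siRelB and on the variance-stabilised scale for siEZH2 in each line, among 11174 genes tested in both experiments. Nearest to KRT8 were FLI1 (distance 0.138), FAS (0.168) and TOX2 (0.221), which share a rise of 0.61 to 0.63 under siEZH2 in SUM149 and little difference elsewhere. Nearest to KRT18 were PSMD5 (0.124), CXCL16 (0.132) and CNST (0.137), and nearest to KRT7 were SMIM3 (0.113), FHL2 (0.117) and ZNF93 (0.122). KRT81 had C21orf91 (0.227), DTD2 (0.242) and CFP (0.262) as its nearest genes. KRT17 had FOSL1 (0.320), NEK6 (0.348) and MMP2 (0.356), and its first 2 coordinates rest on few counts. Its coordinate for siEZH2 in MDA-MB-231 rests on 9.65 to 20.4 normalised counts, and KRT17 passed that filter only through SUM149. No other keratin was among the 3 nearest genes of any of these 5.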

How the data were processed

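RNA libraries of 7 groups were grouped by the labels, and the 30 chromatin immunoprecipitation libraries were not analysed here. The members and gene lists were chosen with earlier results of these data known. For the first experiment the authors deposited raw read counts per Ensembl gene, of which 58207 identifiers matched a GENCODE v44 gene. For the second the authors' table gives variance-stabilised log2-like values, the lowest being 7.12. Per the submitters' processing notes, HISAT2 2.0.5, featureCounts 1.5.0-p3, cutadapt, STAR 2.5.2b, Salmon and DESeq2 (1.20.0 where a version is given) were used with hg19; the sources used here do not give the strand setting or annotation. GRCh38 positions were not converted.

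Counts were fitted with edgeR 4.0.16 (glmQLFit, TMM, default filterByExpr, group term, 6 libraries, 15930 genes, 3 residual degrees of freedom) and values with limma 3.58.1 (eBayes with trend, 8 libraries, 12356 genes that exceed the lowest value by 1 in 2 libraries or more, 4 residual degrees of freedom). P-values were Benjamini-Hochberg adjusted over all genes tested, two-sided, and genes were called at adjusted p under 0.05. All 10 keratins were named in each comparison, and at most the 3 called members of each list with the largest difference; other named genes were chosen after their values were seen. Levels per kilobase use the Ensembl canonical transcript. Normalised counts were recovered from the variance-stabilised values by inverting the closed form, which assumes that form; 86.6% to 89.6% of low values then came out as whole reads within 0.1, where 20% would by chance, so they are estimates. Intervals and floors cover counting error only. Groups of 2 can fail to overlap without any effect. The share of all genes that do so was not counted, so non-overlap is description only. The scripts were tested on simulated data. Alternatives were DESeq2 1.42.0, other size factors, filters, dispersion and variance settings, quantile normalisation, recovered counts, the replicate block and each library left out. Limma on log2 recovered counts and a crossed pairing were added after seeing the data.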

Additional observations from a re-analysis of the deposited data

Results flagged for a closer look

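The interaction term of limma passed the threshold for all 9 tested keratins, but only KRT8, KRT7 and KRT80 are read as a difference between the lines that held with each library left out. The term is given as the effect in SUM149 minus that in MDA-MB-231 on the variance-stabilised scale. It was 1.62 for KRT6A, 0.93 for KRT17, 0.71 for KRT8, 0.64 for KRT5, 0.58 for KRT7, 0.28 for KRT18, -0.52 for KRT80, -0.54 for KRT19 and -0.60 for KRT81. KRT5, KRT6A, KRT17 and KRT19 are close to absent from 1 of the lines, where this scale allows little change, and they passed the filter only through the other line, so their values are no evidence of a difference. The KRT5 term turned sign in edgeR on recovered counts. For KRT19 the recovered counts rose by like folds, 1.75 and 1.76, in both lines. KRT8, KRT7, KRT80 and KRT18 are well expressed in both lines, and in edgeR on the recovered counts their interactions were 0.79, 0.62, -0.56 and 0.31. The KRT18 and KRT81 calls were lost in 6 and 5 of the 8 fits that left out 1 library.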

How the results depend on the processing

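Of 473 recomputed values that used all libraries of a fit or of the groups compared, 452 kept direction and side of the threshold, 8 lost the call, 8 gained it and 5 turned sign. The 5 were KRT8 under siRelB with the replicate block (0.0011), KRT17 under siRelB with no filter (-0.0010), KRT8 under siEZH2 in MDA-MB-231 in edgeR on recovered counts (-0.0083), the KRT5 interaction in edgeR on recovered counts (-2.06 ± 1.58), and the KRT19 interaction in limma on log2 recovered counts plus 1 (0.0170). With 1 library left out, 370 of 414 values kept both, and 12 turned sign. Over the libraries left out, KRT17 ranged from -1.81 to 0.60 under siRelA, from -2.06 to 1.02 under siRelB and from -1.83 to 1.65 between the knockdowns, KRT18 from -0.0789 to 0.0242 under siRelA, and KRT8 from -0.0649 to 0.0478 under siRelB. Under siEZH2, KRT8 ranged from -0.0101 to 0.0228 and KRT80 from -0.1096 to 0.0209 in MDA-MB-231, and KRT81 from -0.0501 to 0.42 in SUM149. Of these, KRT81 was called without siEZH2 replicate 2, and none was called with all libraries. Called keratins ranged from 1 to 2 under siRelA, 1 to 2 under siRelB and 1 to 4 between them when a library was left out. Over all genes, calls fell from 3031 to 1624 (without control replicate 1) and 1786 (replicate 2) under siRelA, from 2913 to 1754 and 1520 under siRelB, and from 2662 to 1611 and 1683 (without MDA-MB-231 control replicate 1 or 2) and 1772 (without SUM149 siEZH2 replicate 2) for the interaction. The median of all genes had an absolute value of at most 0.0435 in every comparison and setting.

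The labels do not say whether a replicate number marks a shared culture. Deviations of same-numbered libraries correlated between -0.0245 and 0.0476 in the first experiment, and at 0.0879 in MDA-MB-231 and -0.117 in SUM149 in the second. Such values show no strong shared deviation but cannot settle whether the samples were paired. The replicate block left the count of called keratins within 1.5 times in every comparison. Its changed calls were KRT81 under siEZH2 in SUM149 (adjusted p = 0.0399 in limma) and KRT19 between siRelA and siRelB (0.0424 in edgeR). With crossed pairing, chosen after seeing the data, the called keratins numbered 4 in MDA-MB-231, 8 in SUM149 and 8 for the interaction. Depth limits KRT17 in MDA-MB-231, KRT19 in SUM149 and the keratins at 0.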
